A study of Mus musculus with 9 samples.

Results

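A set of 9 genes of retinoic acid handling was followed across fetal thymic lobes of 3 mouse genotypes. They are the synthesis enzymes Aldh1a1, Aldh1a2 and Aldh1a3, the breakdown enzymes Cyp26a1, Cyp26b1 and Cyp26c1, the retinoic acid-binding proteins Crabp1 and Crabp2, and the receptor Rarb. The genes were chosen by symbol, and all 9 of 9 were present among the 19505 gene symbols of the arrays, each with 1 transcript cluster (the array's unit for a gene) out of 22206. Lobes came from C57BL/6 embryos at e13.5, and total RNA of each sample was hybridised to 1 of 9 Clariom S arrays. Wild type, Foxn1933/1089 and Tbx1neo2/neo2 each had 3 arrays. Foxn1933/1089 embryos carry a different mutant allele of Foxn1, the master regulator of thymic epithelium, on each chromosome (Foxn1 mutants below). Tbx1neo2/neo2 embryos are homozygous for neo2, an allele known to reduce Tbx1, a T-box factor of pharyngeal patterning (Tbx1 mutants below). No label names a treatment, a Cre driver or the number of embryos behind an RNA sample, so p-values measure the spread between these samples, which may be technical.

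Retinoic acid is made from vitamin A in successive oxidations, the last of them by the ALDH1A enzymes, and it is cleared by the CYP26 cytochromes. It binds heterodimers of retinoic acid and retinoid X receptors, which sit on paired half-sites in DNA called retinoic acid response elements. In the embryo the hormone patterns the caudal pharynx, from which the thymus arises, and in the fetal thymus it is known to be produced by mesenchyme and to act on epithelial cells. Mesothelium, the lining of the body cavities, is also known for strong ALDH1A2.

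Rarb and Cyp26a1 are textbook direct targets of the receptors, so their promoters are shown as the sequences that tie these readouts to the hormone. Windows from 250 bases before to 50 after an annotated start, from RefSeq on GRCm38.p6, were found for 7 of the 9 genes (8 windows); Aldh1a3 and Crabp2 were not searched. A DR5 element, a direct repeat of the receptor half-site with 5 bases between the copies, was searched on both strands, overlaps with other motifs allowed. It was found in the windows of Rarb and Cyp26a1 and in 32 of all 32851 windows (0.0974%). The repeats with a gap of 1 or 2 bases (DR1 and DR2) were in none of the 8 windows, against 0.222% and 0.268% of all windows. With the start site as position 0, the Rarb match ran from -53 to -37 on the gene's strand and the Cyp26a1 match from -32 to -16 on the opposite strand. Both windows are printed 5′ to 3′ along the gene, with the DR5 element in capitals. Rarb lies on the minus strand of chr14:16575427-16575726 and Cyp26a1 on the plus strand of chr19:37697558-37697857.
Rarb: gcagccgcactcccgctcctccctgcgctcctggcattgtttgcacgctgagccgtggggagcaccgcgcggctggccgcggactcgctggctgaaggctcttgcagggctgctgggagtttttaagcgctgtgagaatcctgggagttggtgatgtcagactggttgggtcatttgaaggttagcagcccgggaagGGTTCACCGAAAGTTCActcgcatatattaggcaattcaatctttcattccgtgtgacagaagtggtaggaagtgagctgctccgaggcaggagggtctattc
Cyp26a1: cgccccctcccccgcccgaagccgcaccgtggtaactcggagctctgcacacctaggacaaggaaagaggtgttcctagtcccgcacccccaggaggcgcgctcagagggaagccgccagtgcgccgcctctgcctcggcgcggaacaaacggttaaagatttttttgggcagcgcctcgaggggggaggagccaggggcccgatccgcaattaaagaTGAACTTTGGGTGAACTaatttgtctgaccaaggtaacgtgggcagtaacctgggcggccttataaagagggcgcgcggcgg

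Some facts of the whole series bear on these genes. On the log2 scale the arrays had medians of 5.09 to 5.20. The median of the negative-control features, taken as the background of an array, was 4.27 to 4.94. Precision is limited by the small number of arrays. Wild type replicate 1 and Foxn1 mutant replicate 2 stood apart by lower thymic markers: their means over 14 thymic epithelial markers were 8.06 and 8.46, against 10.98 to 11.46 on the other 7 arrays. Prss16, a thymus-specific protease, read 4.24 and 4.45 there, under the negative-control median, against 13.87 to 14.43, while 11 of the 14 markers were above that median on all arrays. Their means over 10 leukocyte markers were 5.66 and 5.80, against 7.92 to 9.50. Neuron and glia markers were high on wild type replicate 1 (mean 11.32) and heart muscle markers on Foxn1 mutant replicate 2, above the 4.97 to 6.91 of all other arrays. The mean of 3 parathyroid markers was 5.37 to 5.92 on the Tbx1 mutant arrays and 10.08 to 13.60 on the 6 other arrays. Means of the other lists lay at 7.35 to 8.38 (8 endothelial markers), 9.23 to 11.35 (8 erythroid) and 4.39 to 4.72 (8 of airway and gut epithelium). Foxn1 itself ranged from 7.78 to 10.35 in wild type, 8.73 to 9.67 in the Foxn1 mutants and 8.88 to 10.04 in the Tbx1 mutants, and Tbx1 from 4.25 to 5.85, 4.07 to 4.83 and 4.80 to 5.38. The Y-linked gene Uty was high on all wild type arrays (7.56 to 8.84) and on Tbx1 mutant replicate 1 (8.47), and low on the other 5 arrays (2.47 to 3.71). Sex and genotype therefore cannot be told apart between Foxn1 mutants and wild type. Titles of the samples hold 1 of 3 date codes (A, B or C below), and what was done on those dates is not stated. The only wild type array of code C was replicate 1, and the only Foxn1 mutant array of code A was replicate 2. Both stood apart by lower thymic markers. Foxn1 mutant values within code A, wild type values within code C and fits with a date code block therefore rest on them.

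**Figure D1:**
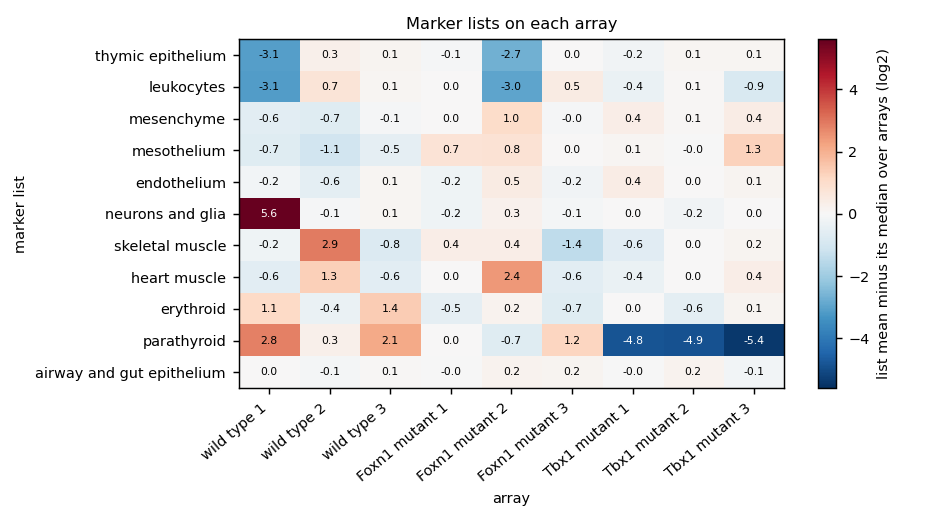
Mean log2 signal of 11 marker lists on each of the 9 arrays, shown as the difference from the list's median over arrays (colour and printed value). Thymic epithelial and leukocyte lists are low on the first wild type and the second Foxn1 mutant replicate, and the mesothelium list is lower on the 3 wild type arrays than on the 6 mutant arrays.

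Of the synthesis enzymes, Aldh1a2 was above the negative-control median on all 9 arrays, Aldh1a3 on 8 and Aldh1a1 on none. Aldh1a2 exceeded 87.6% to 97.1% of the negative controls, and their 95th percentile on 4 of 9 arrays. Aldh1a2 encodes the main retinaldehyde dehydrogenase of embryonic mesoderm. It had wild type readings of 8.09, 7.37 and 8.03, Foxn1 mutant readings of 7.95, 9.37 and 8.26, and Tbx1 mutant readings of 8.17, 8.78 and 10.01. Each Tbx1 mutant array was above each wild type array, while the Foxn1 mutants overlapped wild type. The mean was 7.83 ± 0.40 in wild type, 8.53 ± 0.74 in the Foxn1 mutants and 8.99 ± 0.94 in the Tbx1 mutants (SD, n = 3), so neighbours in this order lay within the spread of the arrays. Tbx1 mutants exceeded wild type by 1.15 ± 0.50 and Foxn1 mutants by 0.69 ± 0.50 log2 units (SE). Neither passed in limma (adjusted p = 1.00 for both). Within date codes A and C the Tbx1 mutants stood 0.13 and 1.31 above wild type, and within codes A and B the Foxn1 mutants 1.33 and 0.73 above it. The values 1.31 and 1.33 each rest on an array with lower thymic markers. Without Tbx1 mutant replicate 3 the Tbx1 mutants exceeded wild type by 0.64, and with the date code as a fixed block it was 0.68. The Foxn1 mutants exceeded wild type by 0.27 without Foxn1 mutant replicate 2 and by 1.17 with that block, which also turned the order of the mutants (Foxn1 above Tbx1 mutants by 0.49). Measured above each array's negative-control median, Aldh1a2 stood at 2.96 to 3.76 in wild type and 3.74 to 5.42 in Tbx1 mutants, which overlap. In RNA of whole lobes, a change in the number of cells of a type and a change in RNA per cell cannot be told apart.

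As a list, markers of mesothelium were higher in both mutants than in wild type, as was the mean of Aldh1a2. The summed level of the 8 mesothelium markers, as their mean, was 5.99 to 6.55 in wild type, 7.06 to 7.87 in the Foxn1 mutants and 7.03 to 8.35 in the Tbx1 mutants. None of the 8 was under the negative-control median on all arrays, and 6 were above it on all arrays. Msln, which encodes mesothelin, was above it on 5 of 9. All 8 had a higher mean in Foxn1 mutants and 6 in Tbx1 mutants, with 0 called by limma in either comparison. The 2 lower in Tbx1 mutants were Msln (-0.026) and Krt19 (-0.28). Krt19, a keratin gene, was highest on wild type replicate 2 (8.40), where Aldh1a2 was lowest. Upk3b, a uroplakin and a defining mesothelial marker, had wild type readings of 8.63, 5.62 and 9.63, Foxn1 mutant readings of 11.51, 12.78 and 10.94, and Tbx1 mutant readings of 11.48, 10.77 and 13.10. All 6 mutant arrays thus exceeded all 3 wild type arrays for this gene. It had the largest increase of all clusters in both comparisons, so it is the extreme of the list. The mean of 14 mesenchyme markers was 8.56 to 9.15 in wild type and 9.17 to 10.26 in the mutants. The part of either cell type in the Aldh1a2 values was not tested.

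By the likeness of pattern, measured as Pearson r over the 9 arrays among 10074 genes above the median level, Aldh1a2 was closest to Wt1 (r = 0.949), Phex (0.938) and Egfl6 (0.921). Wt1, a zinc-finger factor of mesothelium and one of the 8 markers above, was lowest on wild type replicate 2 (4.04) and highest on Tbx1 mutant replicate 3 (7.63), the arrays on which Aldh1a2 was also lowest and highest. The lowest Wt1 reading was under the negative-control median of its array (4.41), and Wt1 was above that median on 8 of 9 arrays. The 3 genes are the best of many, given as a description with no test. Without the 2 arrays with lower thymic markers the 3 values were 0.948, 0.940 and 0.935.

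**Figure D2:**
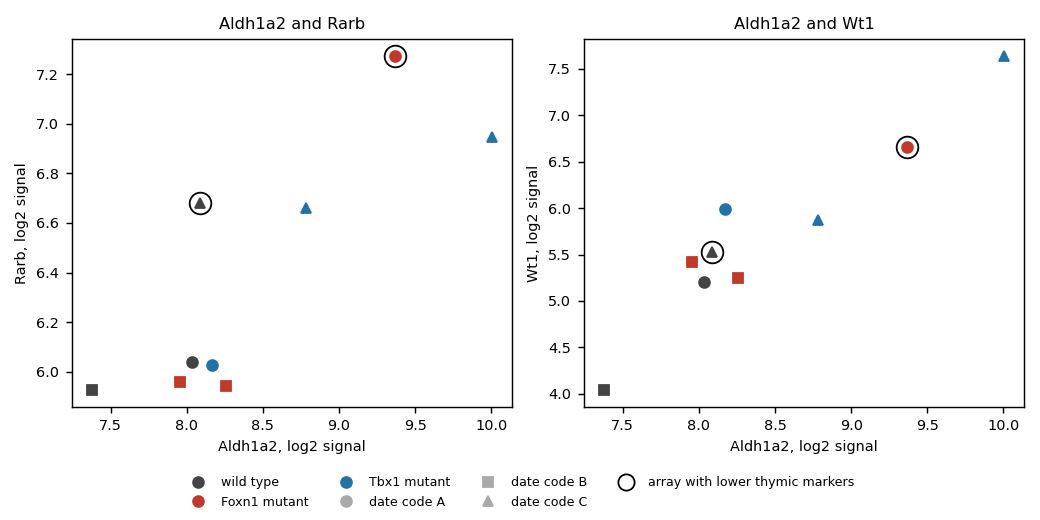
Log2 signal of Aldh1a2 (horizontal axis) against Rarb (left) and Wt1 (right) on each of 9 arrays, with colours for genotypes, symbols for date codes and circles for the 2 arrays with lower thymic markers. Wt1 follows Aldh1a2 from 4.04 to 7.63, while Rarb falls into a band of 5 arrays at 5.93 to 6.04 and one of 4 arrays at 6.66 to 7.27. The lowest Wt1 value lies under the negative-control median of its array (4.41).

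Aldh1a3, an isoenzyme known from eye and nasal epithelium, had wild type readings of 5.58, 5.43 and 5.00, Foxn1 mutant readings of 5.35, 5.99 and 4.75, and Tbx1 mutant readings of 4.77, 4.41 and 4.71. The 3 Tbx1 mutant arrays lay under the 3 wild type arrays, and the Foxn1 mutants spanned both. Tbx1 mutants stood at -0.71 ± 0.32 from wild type (SE; adjusted p = 1.00 in limma), a difference of -0.23 within code A and -1.03 within code C. Foxn1 mutants were 0.73 ± 0.32 above Tbx1 mutants, with an overlap between a Foxn1 mutant array at 4.75 and a Tbx1 mutant array at 4.77. All these values were within 1.34 of the negative-control medians, and 1 Tbx1 mutant array was under its median. The parathyroid markers were low on the same 3 Tbx1 mutant arrays. On the arrays of the other genotypes the highest Aldh1a3 reading (5.99, Foxn1 mutant replicate 2) came with the lowest parathyroid mean (10.08). The next reading (5.58, wild type replicate 1) came with the highest mean (13.60). The part of parathyroid tissue in the Aldh1a3 values was not tested. Aldh1a1, whose product oxidises retinal in several adult epithelia, read 2.95 to 3.80 and was under the negative-control median on all 9 arrays; no fold is given for it.

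The breakdown enzymes lay at or under background, and among them Cyp26b1 read lowest on the 3 Foxn1 mutant arrays. Its product clears retinoic acid in mesenchymal tissues such as limb and gonad. Cyp26b1 had wild type readings of 4.35, 5.04 and 4.67, Foxn1 mutant readings of 3.59, 4.01 and 3.56, and Tbx1 mutant readings of 4.68, 4.84 and 4.65. All 3 Foxn1 mutant arrays were lower than all 6 other arrays, and wild type and Tbx1 mutants overlapped. The mean was 3.72 ± 0.25 in the Foxn1 mutants, 4.69 ± 0.34 in wild type and 4.72 ± 0.10 in the Tbx1 mutants (SD, n = 3). The log2 difference was -0.97 ± 0.23 against wild type and -1.01 ± 0.23 against Tbx1 mutants (SE), and neither passed over all clusters (adjusted p = 1.00 in limma for both). Within date code A the Foxn1 mutant stood at -0.66 from wild type and -0.67 from the Tbx1 mutant, and within code B the 2 Foxn1 mutants at -1.47 from the wild type array. With any 1 array left out the difference from wild type stayed between -1.14 and -0.79.

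These are dim values. Cyp26b1 was under the negative-control median on all 3 Foxn1 mutant arrays and above it on 2 of 3 wild type and 3 of 3 Tbx1 mutant arrays, by at most 0.63. For a fold, the Foxn1 mutant arrays were set to their negative-control medians and the other genotypes were taken as read. The Foxn1 mutants were then 1.17-fold lower than wild type and at least 1.20-fold lower than the Tbx1 mutants. The wild type mean includes replicate 1, which was itself under its negative-control median. Uty was also low on Tbx1 mutant replicates 2 and 3 (3.45 and 3.66, against 2.47 to 3.71 in the Foxn1 mutants). Those 2 arrays read Cyp26b1 at 4.84 and 4.65. The part of sex in the Cyp26b1 values was not tested.

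Cyp26a1 and Cyp26c1 are neighbouring genes on chromosome 19. Cyp26a1, an inducible enzyme with the DR5 element shown above, read 2.52 to 2.97 in wild type, 2.96 to 3.49 in the Foxn1 mutants and 2.85 to 3.28 in the Tbx1 mutants. Cyp26c1, an enzyme of hindbrain and head mesenchyme, read 2.90 to 3.10, 2.87 to 3.17 and 2.99 to 3.69. Both were under the negative-control median on all 9 arrays, so no fold is given and the order of the genotypes is one between background values.

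**Figure D3:**
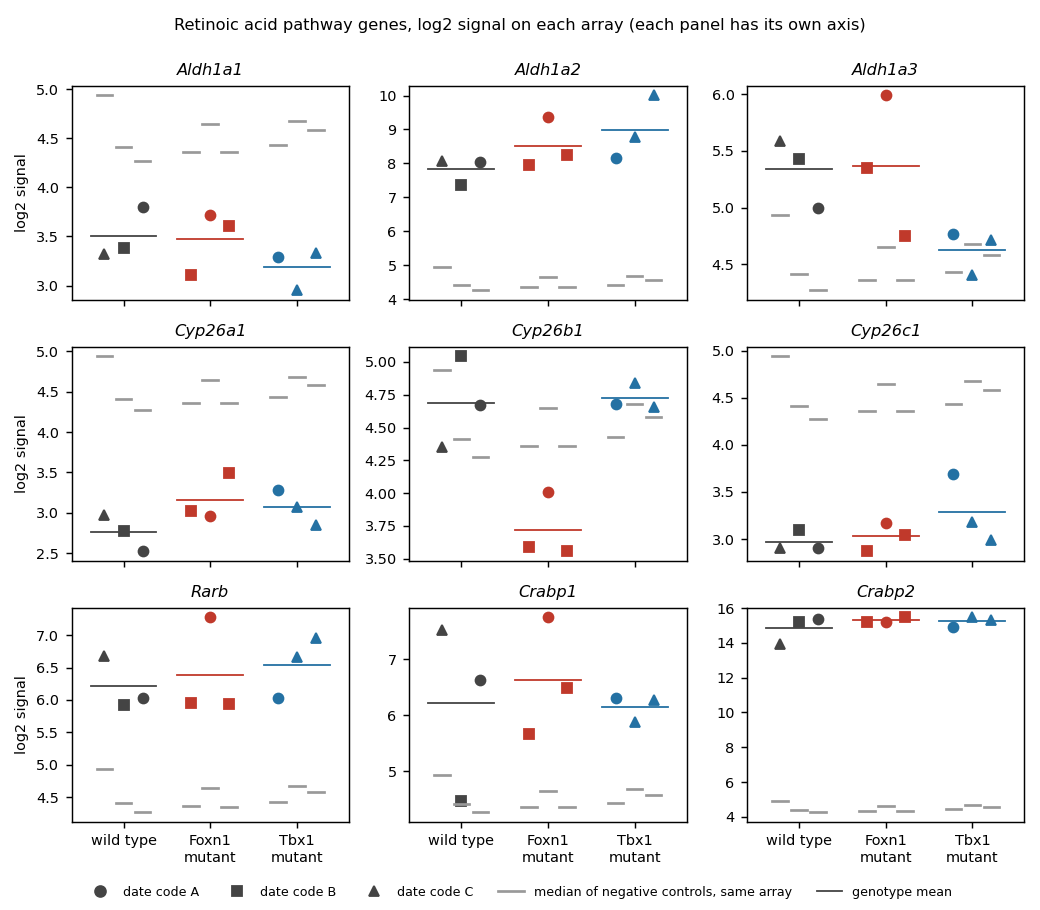
Log2 signal of the 9 genes on each array by genotype (symbols show the date code; each panel has its own axis), with the genotype mean as a coloured line and the median of that array's negative controls as a grey tick. Cyp26b1 is lower on the 3 Foxn1 mutant arrays (3.56 to 4.01) than on the other 6 (4.35 to 5.04), and Aldh1a1, Cyp26a1 and Cyp26c1 lie under the grey ticks on all arrays.

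The binding proteins were both measured above background on all arrays. Crabp2, which carries retinoic acid to its nuclear receptor, exceeded 99.2% or more of the negative controls on each array. It had wild type readings of 13.92, 15.18 and 15.38, Foxn1 mutant readings of 15.20, 15.20 and 15.46, and Tbx1 mutant readings of 14.93, 15.47 and 15.32. The low value is that of wild type replicate 1, and all other arrays lay within 14.93 to 15.47. Foxn1 mutants differed from wild type by 0.46 ± 0.36 and Tbx1 mutants by 0.41 ± 0.36 log2 units (SE; adjusted p = 1.00 in limma for both). Without wild type replicate 1 these became 0.013 and -0.037.

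Crabp1, a cytosolic binder linked to retinoic acid breakdown and known from neural crest mesenchyme, varied widely among the wild type and Foxn1 mutant arrays (SD 1.57 and 1.04, n = 3) and less among the Tbx1 mutants (SD 0.24). It had wild type readings of 7.53, 4.48 and 6.63, Foxn1 mutant readings of 5.67, 7.74 and 6.48, and Tbx1 mutant readings of 6.30, 5.87 and 6.27. The 2 highest values were those of the arrays with lower thymic markers, and the lowest, on wild type replicate 2, was 0.063 above its negative-control median. That array also had the highest skeletal muscle markers (mean 8.83 over 10 genes; 4.49 to 6.29 elsewhere), whose part in the value was not tested. Foxn1 mutants differed from wild type by 0.42 ± 0.73 and Tbx1 mutants by -0.063 ± 0.73 log2 units (SE; adjusted p = 1.00 in limma for both). In the Foxn1 mutants it turned to -0.45 without wild type replicate 2 and to -0.13 without Foxn1 mutant replicate 2. Within codes A and B the Foxn1 mutants stood at 1.11 and 1.60 from wild type, within codes A and C the Tbx1 mutants at -0.33 and -1.45, and within code A the Foxn1 mutant at 1.45 from the Tbx1 mutant. With the date code as a fixed block the differences were 1.22 ± 0.37, -0.87 ± 0.37 and, between Foxn1 and Tbx1 mutants, 2.09 ± 0.45 (SE) against 0.48 ± 0.73 without it. The lowest adjusted p of the 3 in limma was 0.456. Over the 9 arrays the genes most like Crabp1 were Cdh18 (r = 0.978), Tvp23a (0.959) and Klhl7 (0.950), again as a description.

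The receptor Rarb, itself induced by retinoic acid through the DR5 element printed above, gave no difference between genotypes beyond the spread of the arrays. It had wild type readings of 6.68, 5.93 and 6.04, Foxn1 mutant readings of 5.96, 7.27 and 5.94, and Tbx1 mutant readings of 6.03, 6.66 and 6.95. Foxn1 mutants differed from wild type by 0.18 ± 0.40 and Tbx1 mutants by 0.33 ± 0.40 log2 units (SE; adjusted p = 1.00 in limma for both). Within codes A and B the Foxn1 mutants stood at 1.23 and 0.022, and within codes A and C the Tbx1 mutants at -0.011 and 0.12. With the date code as a fixed block the Foxn1 mutants stood at 0.61 and the Tbx1 mutants at -0.10 from wild type. Rarb fell into 2 bands that cut across genotype, with 5 arrays at 5.93 to 6.04 and 4 arrays at 6.66 to 7.27. The upper band held all 3 arrays of date code C and Foxn1 mutant replicate 2. Those 4 arrays also had the 4 highest negative-control medians (4.58 to 4.94 against 4.27 to 4.43), and their distance above that median was 1.74 to 2.62, against 1.51 to 1.76 on the other 5. The part of background and date code in the bands was not tested, and with bands of 5 and 4 arrays no correlation of Rarb with Aldh1a2 was computed.

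Read as a set, the 9 genes gave no call by limma in any comparison. Between Foxn1 mutants and wild type 0 of 9 passed, where 0% of the 22206 clusters did; at an unadjusted p under 0.05 there was 1 of 9 (Cyp26b1, lower), against 4.04% of clusters. Groups did not overlap for that same gene alone, 1 of 9 against 8.29% of clusters. Between Tbx1 mutants and wild type 0 of 9 passed, against 0.0135% of clusters, and 1 of 9 had an unadjusted p under 0.05 (Aldh1a2, higher), against 3.79%. Groups did not overlap for 2 of 9 (Aldh1a2 higher and Aldh1a3 lower), against 9.45%. Between Foxn1 and Tbx1 mutants 0 of 9 passed, against 0% of clusters, and 2 of 9 had an unadjusted p under 0.05 (Aldh1a3 higher and Cyp26b1 lower in the Foxn1 mutants), against 2.98%. Groups did not overlap for 1 of 9 (Cyp26b1), against 8.92%. The test for any difference between genotypes called 0 of 9, against 0.00901% of clusters, and Cyp26b1 alone had an unadjusted p under 0.05, against 3.22%. Counts of 1 or 2 genes among 9 are too small to set apart from these shares. Each pair of these comparisons shares the arrays of 1 genotype, and an exact test of 3 arrays against 3 cannot give a p under 0.1.

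**Figure D4:**
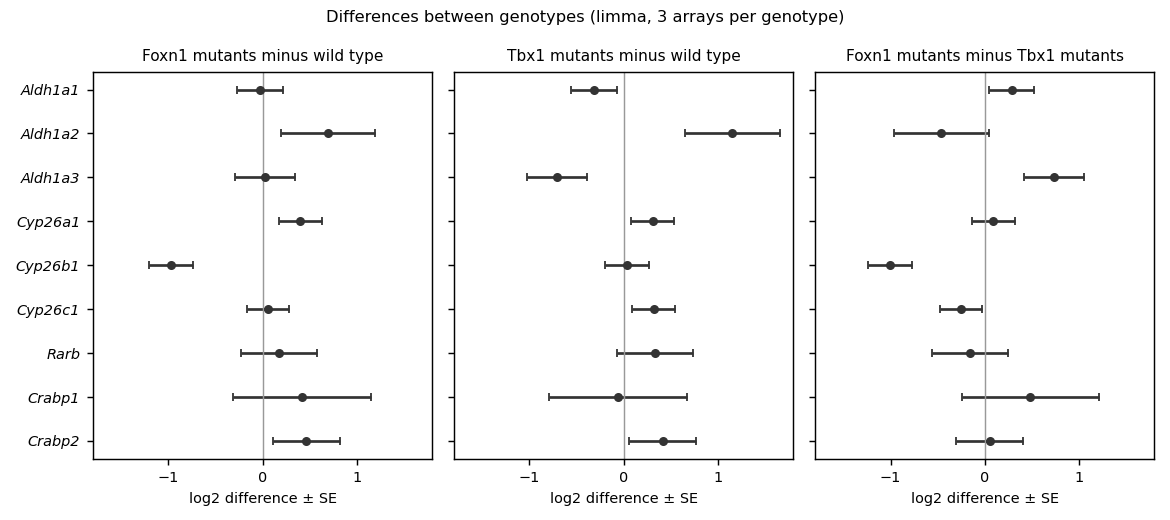
Log2 differences of the 9 genes between genotypes (points, with SE from limma as bars; 3 arrays per genotype). Cyp26b1 stands at -0.97 and -1.01 in the comparisons of Foxn1 mutants with wild type and with Tbx1 mutants, Aldh1a2 at 1.15 in that of Tbx1 mutants with wild type, and no gene passed over all clusters.

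Upstream of the ALDH1A enzymes, 19 of 20 listed genes of retinol uptake, storage and first oxidation were measured, and 0 were called in any comparison. In the Foxn1 mutants 12 were higher and 7 lower than in wild type with a median of 0.16, and in the Tbx1 mutants 11 were higher and 8 lower with a median of 0.00094. The medians of all clusters were 0.018 and 0.015. Of the genes with the lowest p in each direction, Rdh10, the dehydrogenase that makes retinaldehyde in the embryo, was at 0.57 ± 0.41 (SE) in the Tbx1 mutants. Its values were 8.26, 9.52 and 10.05 in wild type and 10.04, 9.81 and 9.70 in the Tbx1 mutants, with the low value on wild type replicate 1. Stra6, the membrane receptor for retinol-binding protein, was at -0.73 ± 0.52 in the Tbx1 mutants, and wild type replicate 1 was again the array that differed (6.50; 4.74 and 5.02 on the other wild type arrays). Rdh11, a retinal reductase, was at -0.31 ± 0.34 in the Foxn1 mutants. Stra6l, a relative of Stra6, was at 0.33 ± 0.18 there but under the negative-control median on all arrays.

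Among nuclear receptors and their partners, 13 of 16 listed genes were measured, all 13 above the negative-control median on all arrays, and 0 were called. The median was -0.12 in the Foxn1 mutants, with 3 higher and 10 lower, and -0.094 in the Tbx1 mutants, with 4 higher and 9 lower. Hdac3, a deacetylase of receptor co-repressor complexes, was at 0.32 ± 0.18 (SE) in the Foxn1 mutants, and Rere, a nuclear coregulator that promotes retinoic acid signalling, at -0.54 ± 0.31. In the Tbx1 mutants Nrip1, a ligand-dependent co-repressor, was at 0.25 ± 0.30 and the receptor gene Rxrb at -0.19 ± 0.26. The retinoic acid receptor genes Rara and Rarg read 7.60 to 9.71 and 10.14 to 11.28 over the 9 arrays.

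Of 20 genes listed as responsive to retinoic acid, 18 were measured and 0 were called. The median was 0.28 in the Foxn1 mutants, with 14 higher and 4 lower, and 0.23 in the Tbx1 mutants, with 13 higher and 5 lower. At an unadjusted p under 0.05, 2 of 18 were higher in the Foxn1 mutants (Nr2f2 and Hoxb5), against 2.28% of all clusters, and 1 of 18 in the Tbx1 mutants (Nr2f1), against 1.97%. Hoxb5, a homeobox gene, exceeded its background median on only 2 of 9 arrays. Nr2f2, an orphan receptor of mesenchyme and veins, had wild type readings of 10.39, 10.40 and 10.99, Foxn1 mutant readings of 11.14, 12.45 and 11.17, and Tbx1 mutant readings of 11.00, 11.32 and 11.54. All mutant arrays exceeded all wild type arrays, but Tbx1 mutant replicate 1 (11.00) only narrowly exceeded wild type replicate 3 (10.99). Of all clusters, 8.29% did not overlap between Foxn1 mutants and wild type, and 9.45% between Tbx1 mutants and wild type. The Nr2f2 difference was 0.99 ± 0.36 (SE; adjusted p = 1.00 in limma) in the Foxn1 mutants. Its relative Nr2f1 had wild type readings of 10.81, 9.84 and 11.25 and Tbx1 mutant readings of 11.86, 11.95 and 12.25, 1.39 ± 0.44 higher (SE; adjusted p = 1.00 in limma). These genes are also mesenchymal, and the mesenchyme means given above were higher on the mutant arrays than on the wild type arrays. The part of mesenchyme in the values of these genes was not tested. Ret, a receptor of developing neurons, had the lowest p among lower genes in both comparisons, and this came from wild type replicate 1 (10.47; 3.74 to 4.97 elsewhere), the array with the neuronal markers.

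**Figure D5:**
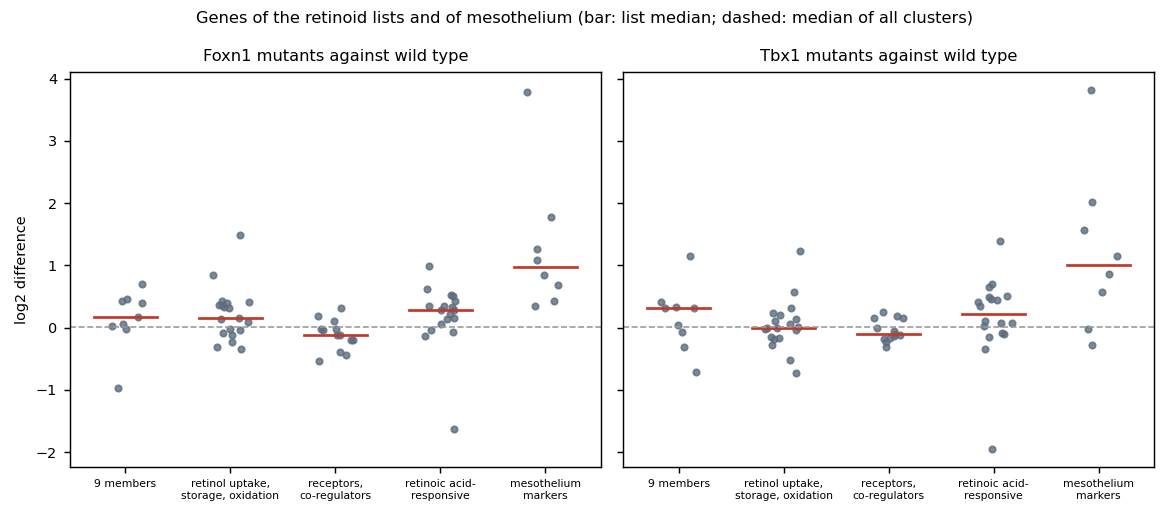
Log2 differences from wild type of single genes (points) in the 9-gene set, 3 other retinoid lists and the mesothelium markers, with list medians as bars and the median of all clusters as a dashed line. Medians of the retinoid lists lie between -0.12 and 0.31, and those of the 8 mesothelium markers at 0.97 and 1.01.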

How the data were processed

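The deposited log2 values of 9 arrays were used as given by the authors. Their unit was read from their range (1.47 to 19.92), since no source used here gives the scale, software, normalization or genome build. Control features were left out, leaving 22206 clusters, of which 19572 carry 1 symbol in the platform annotation. The highest-mean cluster stands for a gene. Arrays were grouped by the labelled genotype. limma 3.58.1 (R 4.3.3) fitted 1 term per genotype over the 9 arrays (two-sided, Benjamini-Hochberg adjustment over all clusters, threshold 0.05). Background is the median of 5222 negative controls on each array. The members and lists were chosen with earlier results of these data known. Genes beyond the 9 were named by rule: the lowest p in each direction of the 3 retinoid lists, and the 3 highest Pearson r for members spanning over 2 log2 units with a mean above that of the median cluster (5.15); marker genes describe tissue content, and Rara, Rarg, Hoxb5 and the genes of the closing observations were chosen after their values were seen. The fit was first tested on simulated data with changes planted in the Foxn1 mutant group. It recovered 17.2% of planted log2 changes of 1 and 70.8% of those of 2. Counts of 0 calls therefore do not exclude changes of about 1 log2 unit. Alternatives were other normalizations, filters on dim clusters, moderation, array weights, date code blocks and arrays left out. Figures used matplotlib 3.10.9 in Python 3.11.15.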

Additional observations from a re-analysis of the deposited data

How the results depend on the processing

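No member and no gene of the retinoid lists was called under any alternative run, so all counts of calls stayed at 0. Of 516 recomputed member differences, 475 kept their direction and 41 changed sign, 23 of them with 1 array left out. The 475 include values that could not change sign. Filters, other moderation and fits of only the compared arrays leave the log2 difference as it was. So does leaving out an array of a genotype outside the comparison. Cyp26b1 in the Foxn1 mutants (-1.28 to -0.79 against wild type, -1.15 to -0.90 against Tbx1 mutants), Aldh1a2 against wild type (0.27 to 1.17 in Foxn1 mutants, 0.64 to 1.56 in Tbx1 mutants) and Aldh1a3 in the Tbx1 mutants (-0.88 to -0.58) kept their sign in each alternative that gave a value. For the sign changes below the cause was not tested.

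Against wild type in the Foxn1 mutants, Aldh1a1 became 0.023 with median centring and 0.058 with centring on the negative-control median (chosen after seeing the data; it moved the median of all clusters to 0.10). Aldh1a3 became -0.037 and Cyp26c1 -0.023 with array weights, and Cyp26c1 -0.030 with the date code as a fixed block. Without both arrays that stood apart, Aldh1a3 became -0.16, Cyp26c1 -0.042 and Rarb -0.033. In the Tbx1 mutants against wild type, Cyp26b1 became -0.085 and Crabp1 0.44 with array weights, and Rarb -0.10 with the fixed block. Without both arrays Cyp26b1 became -0.13, Crabp1 0.59 and Crabp2 -0.037. Between Foxn1 and Tbx1 mutants the fixed block gave 0.49 for Aldh1a2, 0.71 for Rarb and -0.36 for Crabp2, and Crabp1 became -0.071 without both arrays.

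With any 1 array left out, the Foxn1 mutants against wild type ranged from -0.15 to 0.16 for Aldh1a1, -0.29 to 0.33 for Aldh1a3, -0.0099 to 0.14 for Cyp26c1, -0.26 to 0.41 for Rarb and -0.45 to 1.08 for Crabp1. The Tbx1 mutants against wild type ranged from -0.13 to 0.21 for Cyp26b1, -0.93 to 0.59 for Crabp1 and -0.037 to 0.69 for Crabp2. Foxn1 against Tbx1 mutants ranged from -0.88 to 0.049 for Aldh1a2, -0.076 to 0.20 for Cyp26a1, -0.59 to 0.071 for Rarb, -0.071 to 0.96 for Crabp1 and -0.10 to 0.16 for Crabp2. A genotype left with 2 arrays, or 1 code, is assumed to vary like the others. The filters removed Aldh1a1, Cyp26a1 and Cyp26c1 (first quartile) and also Aldh1a3 and Cyp26b1 (median). The alternative of several clusters per gene was not run, since each listed gene had 1 cluster. Signal over background limits Aldh1a1, Aldh1a3 and the Cyp26 genes.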

Other observations

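On the 2 arrays with lower thymic markers, some genes of the retinoid lists lay outside the range of the other 7 arrays, as did many other clusters. These 2 arrays, wild type replicate 1 and Foxn1 mutant replicate 2, belong to different genotypes and date codes. Dhrs3, a retinaldehyde reductase that is itself induced by retinoic acid, read 11.76 and 12.72 there and 10.64 to 11.16 on the other 7 arrays. Stra6 read 6.50 and 6.22 against 4.60 to 5.02, Rara 8.92 and 9.71 against 7.60 to 8.43, and the homeobox gene Meis1 13.99 and 14.01 against 12.15 to 12.96. Rdh10 went the other way, at 8.26 and 9.18 against 9.52 to 10.05. Of the 9 members, Crabp1 and Aldh1a3 were above all other arrays on both. Of the 50 other measured genes of the 3 lists, 11 (22.0%) were above the other 7 arrays on both, against 7.83% of all clusters. Only 1 (2%) was below, against 12.1% of all clusters. Among the 11, Bco1 and Ripply3 were under the negative-control median on all arrays. Rere exceeded the other 7 arrays only narrowly (11.48 and 11.51 against at most 11.43). These values carry no test, and the 2 arrays also differed from the rest in thymic, leukocyte and other marker lists.

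The transport genes Rbp4, for the plasma carrier of retinol, and Ttr, for transthyretin, which travels with it, varied widely within each genotype. Rbp4 had wild type readings of 7.72, 10.64 and 5.84, Foxn1 mutant readings of 10.71, 7.88 and 8.17, and Tbx1 mutant readings of 7.35, 5.08 and 11.95. Ttr read 5.33, 6.67 and 3.69, then 8.40, 5.18 and 6.57, then 6.22, 4.53 and 8.65 in the same order. Both genes were highest on Tbx1 mutant replicate 3 and Foxn1 mutant replicate 1, and the genotypes overlapped for both.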
